A study of Mus musculus with 26 samples.

Results

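Phosphatases that switch off mitogen-activated protein kinases were followed in the striatum of 2 mouse models of Huntington's disease. The 8 genes were Dusp1, Dusp3, Dusp4, Dusp5, Dusp6, Dusp14, Ptpn5 and Ptpn7, chosen by symbol for their place as negative regulators of ERK signalling upstream of the transcription factor Elk-1. Earlier results of these data were known when the choice was made. They are 8 of 14833 genes listed in any of the 5 deposited tables, and all 8 have a row in 4 of the tables. The table on Elk-1 delivery lists 7 of them, without Ptpn7.

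ERK is activated by phosphorylation of a threonine and a tyrosine in its activation loop, and removal of either phosphate switches it off. Dual-specificity phosphatases (Dusp genes) remove both, whereas tyrosine phosphatases of the Ptpn5, Ptpn7 and Ptprr type bind the kinase through a kinase interaction motif and remove the tyrosine phosphate. In striatal spiny projection neurons, the main neurons of this tissue, ERK is activated by glutamate and dopamine and in turn activates Elk-1, an ETS-family factor that acts with serum response factor on activity-induced genes. Several of the phosphatase genes are themselves induced by ERK and so act as feedback brakes.

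Total RNA from striatum was sequenced in 26 libraries that form 9 groups. R6/1 mice, which carry a transgene of exon 1 of human huntingtin with an expanded repeat under the human promoter, were compared with wild type at 4 weeks and at 8 weeks. CHL2 mice, known as a knock-in strain with an expanded repeat in the mouse huntingtin gene and of a zygosity the labels do not give, were compared with wild type at 1 year. These 6 groups hold 3 libraries each. The other 3 groups received an adeno-associated virus (AAV) and were sampled at 10 weeks: wild type with control AAV (2 libraries), R6/1 with control AAV (2) and R6/1 with Elk-1 AAV (4). The control virus is called mCherry in the tables. The labels give neither the promoter of the viral transgene nor the cells it reached, nor whether the libraries of a group came from separate animals. A p-value therefore measures only the spread between libraries, which may be technical.

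The tables give 1 pooled FPKM per group (fragments per kilobase of transcript scaled to the mapped fragments of the library, a level corrected for gene length) and the authors' own test. No value per library is given, so spread and depth cannot be stated and no SD is printed. A gene is said to have fallen or risen where the authors' deposited table gives it a q (adjusted p) below 0.05. All log2 fold changes are those of the tables, second group over reference, unless log2(FPKM + 1) is named. No other row of the tables overlaps the position of any of the 8 genes.

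The promoters are shown first, and the genes differ in the activity-linked motifs they hold. Whether these motifs relate to the RNA differences described after them was not tested. RefSeq windows of the 250 bases before the start of transcription (build GRCm38.p6) matched 7 of the 8 genes, in 9 windows. Each window was searched on both strands for the cAMP response element TGACGTCA, the CArG box bound by serum response factor and the ETS core CCGGAA, and no match overlapped another. The motifs were chosen after the expression values were known. Windows with a match are printed 5′ to 3′ with the matches in capitals.
Dusp1, chr17:26508473-26508722, minus strand: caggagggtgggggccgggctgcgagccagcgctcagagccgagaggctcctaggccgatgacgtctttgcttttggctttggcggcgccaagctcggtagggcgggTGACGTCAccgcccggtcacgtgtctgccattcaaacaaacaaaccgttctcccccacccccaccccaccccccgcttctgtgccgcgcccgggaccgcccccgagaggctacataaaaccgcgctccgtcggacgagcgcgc
Dusp5, chr19:53528895-53529144, plus strand: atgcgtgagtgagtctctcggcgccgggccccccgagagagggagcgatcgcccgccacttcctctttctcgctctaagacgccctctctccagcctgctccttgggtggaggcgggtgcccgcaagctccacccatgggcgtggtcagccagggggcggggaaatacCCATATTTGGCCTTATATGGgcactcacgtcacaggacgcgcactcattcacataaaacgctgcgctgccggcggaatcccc
Dusp14, chr11:84068358-84068607, minus strand: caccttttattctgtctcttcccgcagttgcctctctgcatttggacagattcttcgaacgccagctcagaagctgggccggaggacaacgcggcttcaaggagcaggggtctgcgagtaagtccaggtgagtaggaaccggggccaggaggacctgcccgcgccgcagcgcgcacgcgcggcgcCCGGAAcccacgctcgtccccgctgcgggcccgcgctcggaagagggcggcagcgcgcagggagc
Dusp1 holds 1 cAMP response element, 135 bases before the start, a motif found in 1.55% of 32851 windows of the same length. Dusp5 holds a pair of adjoining CArG boxes, 62 and 72 bases before the start, and 1.47% of all windows hold at least 1. Dusp14 holds 1 ETS core, 59 bases before the start, which 12.03% of all windows hold. The windows of Dusp3, Dusp6, Ptpn5 and Ptpn7 had none of these letters. A match is a description of the sequence and not evidence that a factor binds there.

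The 8 genes covered a wide range of levels. Ptpn5, the striatal-enriched phosphatase STEP, was the highest, at 166 to 184 FPKM in the 4 wild-type pools of the authors' deposited tables. Next came Dusp3 at 41.6 to 59.7, Dusp14 at 30.1 to 65.6, Dusp6 at 17.3 to 41.4 and Dusp1 at 20.0 to 46.8 FPKM per the authors' deposited tables. Dusp5 (3.24 to 3.82), Dusp4 (2.59 to 4.09) and Ptpn7 (1.504 to 3.12 FPKM) were the lowest per the authors' deposited tables. The ranges of neighbours in this order overlapped except between Ptpn5 and Dusp3 and between Dusp1 and Dusp5. Tables were normalised separately, so levels set across tables are a description only. Ptpn5 varied least between wild-type pools (the highest value was 1.11 times the lowest), and Dusp6, Dusp1 and Dusp14 varied most (2.40, 2.35 and 2.18 times). For these 3 the highest value was that of the control-AAV wild-type pool.

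**Figure D1:**
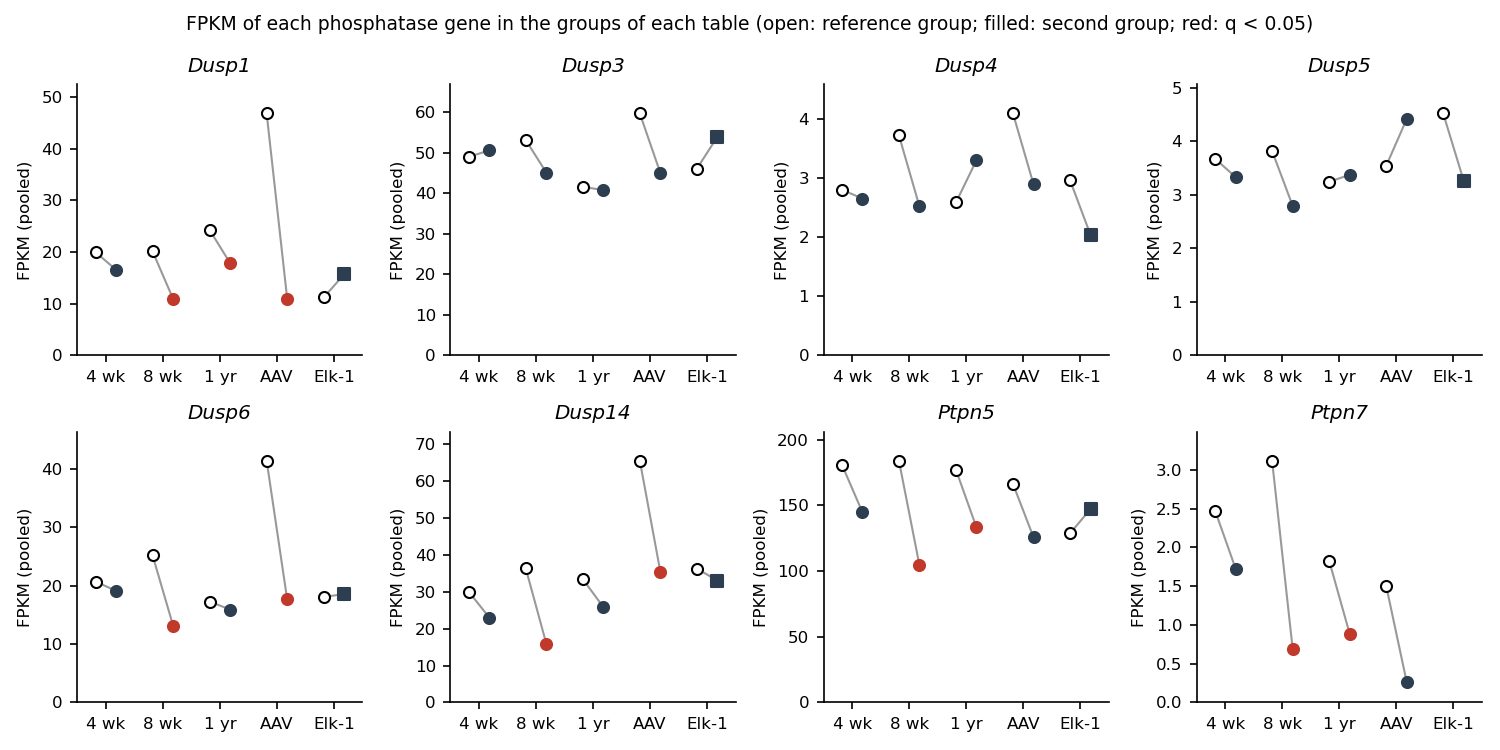
FPKM of each phosphatase gene (vertical axes, 1 pooled value per group) in the reference group (open) and second group (filled; square for Elk-1 AAV, red where q was below 0.05) of the 5 tables, placed along the horizontal axes as 4 weeks, 8 weeks, 1 year, control AAV and Elk-1 AAV. Dusp1, Dusp6, Dusp14, Ptpn5 and Ptpn7 are lower in R6/1 at 8 weeks, and Dusp1 goes from 46.8 in control-AAV wild type to 10.9 in control-AAV R6/1.

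The R6/1 comparison at 8 weeks held the most differences. Of the 8 genes, 5 fell (Ptpn7, Dusp14, Dusp6, Dusp1 and Ptpn5) and 0 rose, where 5.34% of the 14320 genes of the authors' deposited table were called lower and 0.789% higher. All 8 had lower values in R6/1. Their median log2(FPKM + 1) change was -0.82, beside 0.0059 over all genes. In bulk tissue, fewer cells of a type and less RNA per cell cannot be told apart.

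At 4 weeks 0 of the 8 genes passed the authors' Cuffdiff test, in a table where 0.468% of 14539 genes did in either direction. At an unadjusted p below 0.05, 4 of the 8 had lower values in R6/1 (Dusp14, Ptpn7, Ptpn5 and Dusp1), where 2.1% of all genes were lower at that threshold per the authors' deposited table. The median log2(FPKM + 1) change of the 8 was -0.18, beside 0.0012 over all genes. Whether the changes at 4 and 8 weeks differ was not tested.

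In CHL2 at 1 year 3 of the 8 fell (Ptpn7, Dusp1 and Ptpn5) and 0 rose, where 1.97% of 14402 genes were called lower and 1.67% higher per the authors' deposited table. The median log2(FPKM + 1) change of the 8 was -0.24, beside 0.0020 over all genes. Between the control-AAV groups 3 of the 8 fell in R6/1 (Dusp1, Dusp6 and Dusp14) and 0 rose, where 2.51% of 12980 genes were called lower and 0.724% higher per the authors' deposited table. There the median log2(FPKM + 1) change of the 8 was -0.64, beside 0.014 over all genes.

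**Figure D2:**
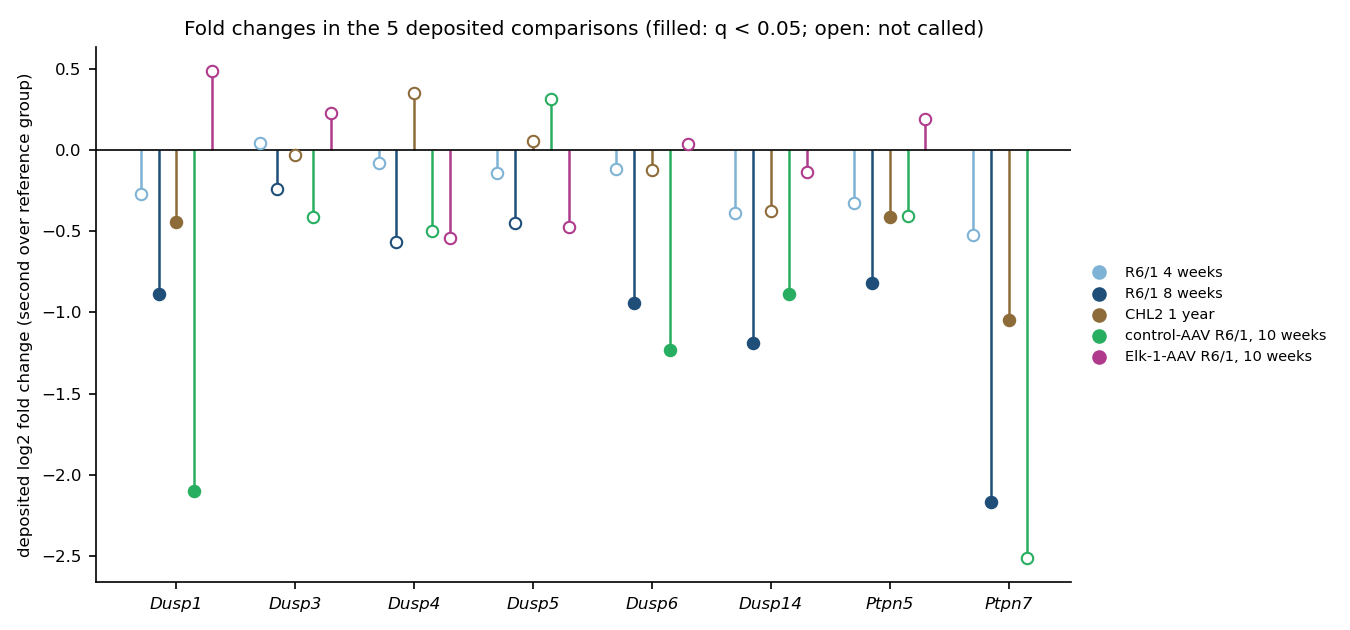
Deposited log2 fold change (vertical axis, second over reference group) of each gene (horizontal axis) in the 5 comparisons, which the colours mark; filled points had q below 0.05. Every filled point lies below 0, and Dusp3, Dusp4 and Dusp5 have no filled point.

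The nuclear, inducible phosphatases come first. Dusp1 (MKP-1; mm9 chr17:26642535-26645417) encodes a nuclear enzyme that acts on p38, JNK and ERK and is itself an immediate-early gene. In R6/1 it fell at 8 weeks from 20.1 to 10.9 FPKM (log2 fold change -0.88, q = 0.0016 per the authors' deposited table). In CHL2 it fell from 24.3 to 17.8 (-0.44, q = 0.0193 per the authors' deposited table). Its greatest difference was between the control-AAV groups, 46.8 against 10.9 FPKM (-2.10, q = 0.00312 per the authors' deposited table). The 2 R6/1 pools at 8 and 10 weeks thus stood at nearly the same FPKM, while the wild-type pools did not. At 4 weeks it was 20.0 in wild type and 16.5 in R6/1 (-0.27, unadjusted p = 0.0284, q = 0.736 per the authors' deposited table).

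Dusp4 (MKP-2; mm9 chr8:35870663-35882948), a nuclear relative of Dusp1, was low and never called. Its pools stood at 3.72 in wild type and 2.52 in R6/1 at 8 weeks (log2 fold change -0.56, q = 0.183 per the authors' deposited table). At 4 weeks they stood at 2.80 and 2.65 (-0.08), and under control AAV at 4.09 and 2.89 (-0.50, q = 0.817), per the authors' deposited tables. In CHL2 the value was the higher one, 3.30 against 2.59 FPKM in wild type (0.35, q = 0.490 per the authors' deposited table). Dusp5 (mm9 chr19:53603807-53615812), a nuclear phosphatase specific for ERK, was also never called. It stood at 3.82 and 2.79 at 8 weeks (-0.45, q = 0.578) per the authors' deposited table. The pools were closer at 4 weeks, 3.67 and 3.33 (-0.14), and in CHL2, 3.24 in wild type and 3.37 (0.06), per the authors' deposited tables. Between the control-AAV groups it was 3.54 in wild type and 4.41 in R6/1 (0.32, q = 0.980 per the authors' deposited table), the only one of the 8 with a higher value in R6/1 there. Dusp5 is also the gene whose window holds the CArG boxes printed above, and a relation of these to its values was not tested.

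Dusp6 (MKP-3; mm9 chr10:98725864-98730123) encodes the cytoplasmic phosphatase specific for ERK and is widely read as a feedback target of the pathway. At 8 weeks it fell from 25.2 to 13.1 FPKM (log2 fold change -0.94, q = 0.0016 per the authors' deposited table). It fell between the control-AAV groups from 41.4 to 17.6 (-1.23, q = 0.00312 per the authors' deposited table). At 4 weeks it stood at 20.7 and 19.1 (-0.12, q = 0.999 per the authors' deposited table). In CHL2 it stood at 17.3 in wild type and 15.9 (-0.12, q = 0.806 per the authors' deposited table). Dusp6 was thus called in both older R6/1 comparisons and not in CHL2, a contrast that was not itself tested.

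The small atypical phosphatases lack the kinase-binding domain of the classical ones. Dusp14 (MKP-6; mm9 chr11:83861546-83881859) fell at 8 weeks from 36.4 to 15.9 FPKM (log2 fold change -1.19, q = 0.0016 per the authors' deposited table). Between the control-AAV groups it fell from 65.6 to 35.4 (-0.89, q = 0.00312 per the authors' deposited table). In CHL2 it stood at 33.5 and 25.9 FPKM (-0.37, q = 0.0922 per the authors' deposited table), which was not a call. At 4 weeks it was 30.1 and 23.0 (-0.38, unadjusted p = 0.0015, q = 0.174), the lowest p of the 8 per the authors' deposited table. Dusp3 (VHR; mm9 chr11:101832457-101846105) was never called and varied least among the dual-specificity genes over all pools, from 40.8 to 59.7 FPKM per the authors' deposited tables. At 8 weeks it stood at 53.2 and 45.1 (-0.24, q = 0.401 per the authors' deposited table). Under control AAV its pools held 59.7 and 45.0 FPKM (-0.41, unadjusted p = 0.0323, q = 0.372 per the authors' deposited table). It was 49.0 and 50.6 at 4 weeks (0.05) and 41.6 and 40.8 in CHL2 (-0.03) per the authors' deposited tables. Dusp14 and Dusp3, both on chromosome 11, thus had unlike values in the same pools.

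Ptpn5 (STEP; mm9 chr7:54333169-54389054) is enriched in striatal neurons and acts on ERK, p38, the kinases Fyn and Pyk2 and the glutamate receptor subunits GluN2B and GluA2. It fell at 8 weeks from 184 to 104 FPKM (log2 fold change -0.82, q = 0.0016 per the authors' deposited table). In CHL2 it fell from 177 to 133 (-0.41, q = 0.0319 per the authors' deposited table). The 4-week pools held 181 and 145 FPKM (-0.32, unadjusted p = 0.00875, q = 0.437 per the authors' deposited table). The control-AAV pools held 166 and 126 FPKM (-0.40, unadjusted p = 0.0256, q = 0.329 per the authors' deposited table). On the log2 scale the control-AAV difference was nearly that of CHL2 but was not called, and its pools held 2 libraries each where those of CHL2 held 3. R6/1 and CHL2 values lay at 56.7 to 80.0% of wild type in these 4 comparisons.

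Ptpn7 (HePTP; mm9 chr1:137029301-137041897) is the related phosphatase best known from blood cells. It had the largest fold change of the 8 at 8 weeks, from 3.12 to 0.693 FPKM (log2 fold change -2.17, q = 0.0016 per the authors' deposited table). In CHL2 it fell from 1.83 to 0.885 (-1.05, q = 0.00303 per the authors' deposited table). At 4 weeks it stood at 2.47 and 1.73 (-0.52, unadjusted p = 0.0042, q = 0.304 per the authors' deposited table). Between the control-AAV groups it stood at 1.504 and 0.263 (-2.51, q = 0.124 per the authors' deposited table), a larger fold change that was not called at this level. All 4 comparisons gave lower values in the model, from a gene under 4 FPKM throughout.

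Because Ptpn7 is known from leukocytes, their markers are given beside it. Of 10 leukocyte markers, 6 have no row in any table, among them the T-cell genes Cd3e, Cd3g and Cd8a and the B-cell gene Cd79a. Ptprc, the pan-leukocyte antigen CD45, was listed at 0.670 to 1.37 FPKM in 4 of the authors' deposited tables and was called in none. Cd4 was much higher and made up most of the summed level of the listed markers, which was 17.1 to 27.98 FPKM in the wild-type pools and 7.82 to 20.4 in the models against them. At 8 weeks Cd4 fell from 24.8 to 9.40 (log2 fold change -1.40, q = 0.0016 per the authors' deposited table). In CHL2 it fell from 20.2 to 12.7 (-0.67, q = 0.00303), and between the control-AAV groups from 14.2 to 5.50 (-1.37, q = 0.00312), per the authors' deposited tables. The other listed markers, Ptprc, Lck and Lcp2, were called in no table. At 8 weeks Ptprc stood at 1.22 and 1.37, Lck at 0.826 and 1.198 and Lcp2 at 1.135 and 1.125 FPKM per the authors' deposited table. In CHL2 all 3 had the higher value in the model, and between the control-AAV groups Lck and Lcp2 had the lower one. The median log2(FPKM + 1) change over the leukocyte markers listed was 0.045 at 8 weeks, 0.042 in CHL2 and -0.21 between the control-AAV groups. The part of blood cells in the Ptpn7 values was not tested.

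Ptprr, the third gene of the kinase interaction motif type, gives a comparison within the family. It was called in none of the 5 comparisons, with 8.13 and 9.04 FPKM at 4 weeks and 8.71 and 9.90 at 8 weeks per the authors' deposited tables. In CHL2 it stood at 8.45 in wild type and 9.05, and in the control-AAV pools at 9.97 and 8.67, per the authors' deposited tables. Ptpn5 and Ptpn7 were lower in the model in each of these 4 comparisons, whereas Ptprr was higher in 3 and lower in 1.

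Elk-1 AAV was compared with control AAV within R6/1, and this comparison shares the control-AAV R6/1 pool with the genotype comparison at 10 weeks. Elk1 itself rose from 15.1 to 30.1 FPKM (log2 fold change 1.00, q = 0.0122 per the authors' deposited table), and viral and endogenous transcripts cannot be told apart. None of the 7 phosphatase genes listed was called by the authors' Cuffdiff test (0 of 7), in a table where 0.575% of 12701 genes were called in either direction. At an unadjusted p below 0.05, 1 of the 7 differed, where 4.91% of all genes did. This was Dusp1, at 11.2 under control AAV and 15.7 under Elk-1 AAV (0.49, unadjusted p = 0.0423, q = 0.959 per the authors' deposited table). The value under Elk-1 AAV lay below the 46.8 of control-AAV wild type per the authors' deposited table on genotype. That pool held the highest Dusp1 of the wild-type pools, which stood at 20.0 at 4 weeks, 20.1 at 8 weeks and 24.3 FPKM at 1 year.

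Values under Elk-1 AAV were higher for 4 of the 7 and lower for 3. Ptpn5 stood at 129 under control AAV and 147 FPKM under Elk-1 AAV (log2 fold change 0.20, q = 0.999 per the authors' deposited table). Dusp3 stood at 46.1 and 54.0 (0.23, q = 0.999), and Dusp6 at 18.04 and 18.6 (0.04, q = 0.999), per the authors' deposited table. The lower ones were Dusp4 at 2.96 and 2.04 (-0.54), Dusp5 at 4.52 and 3.26 (-0.47) and Dusp14 at 36.3 and 33.1 (-0.13), each with q = 0.999 per the authors' deposited table. The median log2(FPKM + 1) change of the 7 was 0.039, beside 0.013 over all genes. Among the Elk relatives, Elk3 and Elk4 were not called in any table.

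A few of the other phosphatases listed were called. Over all 14320 genes at 8 weeks, 5.34% were called lower and 0.789% higher. The counts below were not tested against these shares. Of 4 other MAP kinase phosphatases listed at 8 weeks, only Dusp7, a cytoplasmic relative of Dusp6, fell, from 24.3 to 17.6 FPKM (log2 fold change -0.46, q = 0.0129 per the authors' deposited table). Of 9 other atypical dual-specificity phosphatases, only Dusp18 fell, from 9.83 to 5.92 (-0.73, q = 0.0016 per the authors' deposited table). Of 14 other tyrosine phosphatases, 0 were called at 8 weeks by the authors' Cuffdiff test, and 0 had an unadjusted p below 0.05. In CHL2 the only call in these 3 lists was Ptpn14, which rose from 1.58 to 2.96 (0.90, q = 0.00303 per the authors' deposited table). Over all 14402 genes there, 1.67% were called higher. The log2(FPKM + 1) change in CHL2 rose with transcript length across genes (Spearman's rho 0.410), and the Ptpn14 value is not corrected for length. At 4 weeks and in both AAV comparisons none of the 3 lists held a call by the authors' Cuffdiff test, with 0 or 1 gene of a list at an unadjusted p below 0.05. The median log2(FPKM + 1) changes at 8 weeks were -0.12, -0.082 and 0.0096 for the 3 lists, beside -0.82 for the 8 phosphatases. The 8 genes and the 3 lists were drawn up with earlier results of these data known, so this contrast depends on how they were split.

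**Figure D3:**
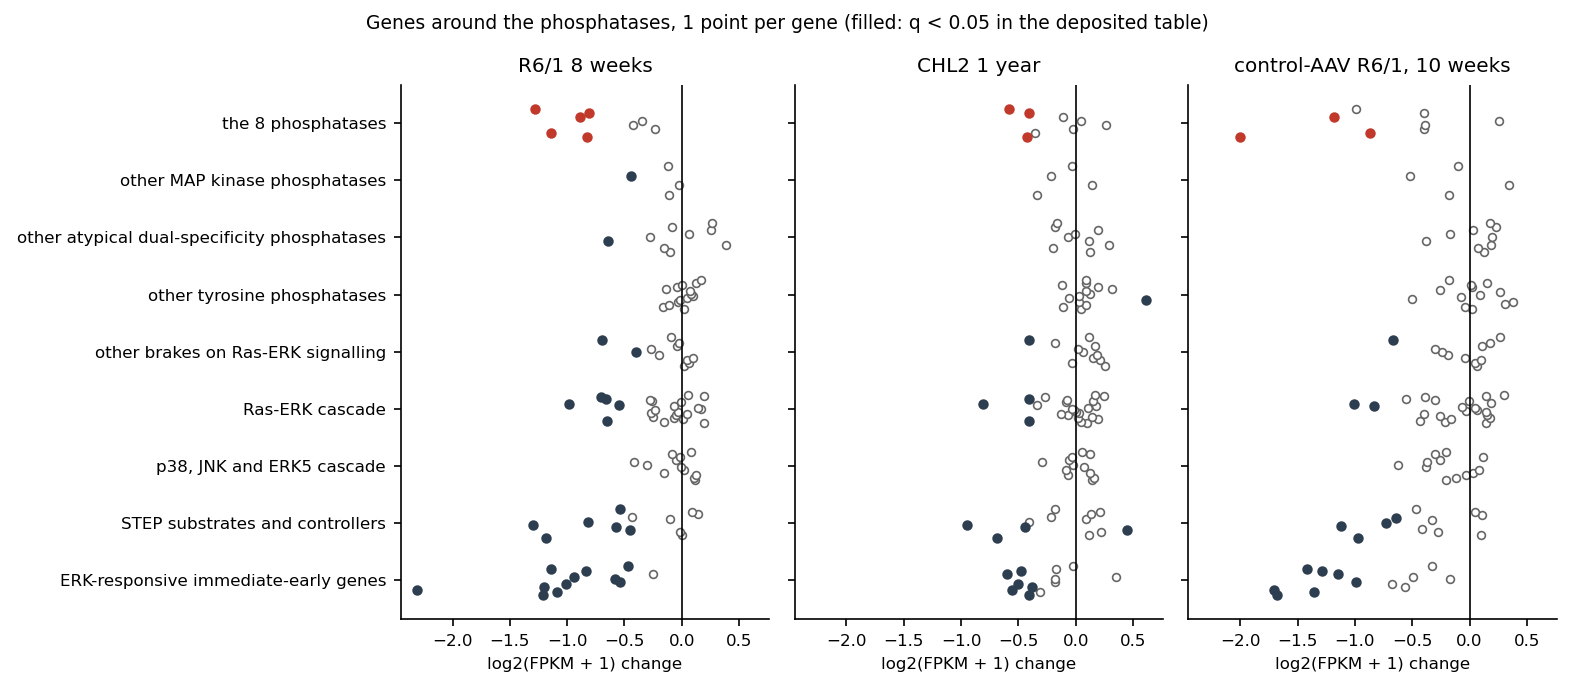
Log2(FPKM + 1) change (horizontal axes) of each gene of 9 lists (rows) in 3 genotype comparisons; filled points had q below 0.05 in the authors' table, red for the 8 phosphatases. At 8 weeks 11 of 12 immediate-early genes, 6 of 12 STEP substrates and controllers and 5 of 23 Ras-ERK genes are filled, and 0 of 12 genes of the p38, JNK and ERK5 list are.

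Sprouty and Spred proteins restrain the pathway above ERK. Spry2 fell at 8 weeks from 34.6 to 20.96 FPKM (log2 fold change -0.72, q = 0.0016 per the authors' deposited table). It also fell in CHL2, from 29.2 to 21.8 (-0.42, q = 0.0286), and between the control-AAV groups, from 34.6 to 21.4 (-0.69, q = 0.0389), per the authors' deposited tables. Spred1 fell at 8 weeks from 53.7 to 40.3 (-0.41, q = 0.0253 per the authors' deposited table). These were the only calls among 11 other brakes on Ras-ERK signalling listed.

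Among the kinases that the phosphatases act on, Mapk3 (ERK1) stood at 110 in wild type and 107 FPKM in R6/1 at 8 weeks (log2 fold change -0.03, q = 0.992 per the authors' deposited table). It was called in none of the 5 comparisons, and 0 of 12 genes of the p38, JNK and ERK5 cascade were called by the authors' Cuffdiff test (2 at an unadjusted p below 0.05 at 8 weeks). The median log2(FPKM + 1) change of these 12 was -0.011 at 8 weeks. Between the control-AAV groups it was -0.21, with 9 of the 12 lower in R6/1 and 2 at an unadjusted p below 0.05. The Ras gene Hras, exchange factors of the Rasgrp family and kinases below ERK were called: 5 of 23 Ras-ERK genes fell at 8 weeks and 0 rose. Rasgrp2, a guanine nucleotide exchange factor, fell from 81.8 to 40.8 (-1.004, q = 0.0016 per the authors' deposited table). The others were Rps6ka5 (MSK1, -0.76), Rps6ka4 (MSK2, -0.69), Hras (listed as Hras1, -0.66) and Rasgrp1 (-0.55, q = 0.0173, the others 0.0016) per the authors' deposited table. CHL2 had 3 called lower (Rasgrp2, Rps6ka4 and Hras) and the control-AAV comparison 2 (Rasgrp2 and Rasgrp1).

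Substrates and controllers of STEP follow, as the genes closest to Ptpn5 in function. Of 12 listed at 8 weeks 6 fell, among them Ppp1r1b (DARPP-32, an inhibitor of protein phosphatase 1 that spiny neurons use downstream of dopamine), from 979 to 399 FPKM (log2 fold change -1.30, q = 0.0016 per the authors' deposited table). The dopamine receptor Drd1a (-1.21, q = 0.0016), the calcineurin subunit Ppp3ca (-0.82, q = 0.0030), Ppp1ca (-0.58, q = 0.0016) and Ptk2b, which encodes Pyk2 (-0.54, q = 0.00785), fell too per the authors' deposited table. Grin2b, the gene of the STEP substrate GluN2B, rose at 4 weeks from 7.18 to 11.3 (0.66, q = 0.0145 per the authors' deposited table). It fell at 8 weeks from 17.3 to 12.4 (-0.49, q = 0.0016 per the authors' deposited table). In CHL2 it rose from 7.46 to 10.6 (0.50, q = 0.00303 per the authors' deposited table), and the AAV tables do not list it. Across genes, the log2(FPKM + 1) change rose with transcript length at 4 weeks and in CHL2 (Spearman's rho 0.498 and 0.410). The Grin2b values are not corrected for length, and the part of length in them was not tested. Fyn and Gria2, also STEP substrates, were called in none of the 5 comparisons. In CHL2 3 of the 12 fell and 1 rose, and between the control-AAV groups 4 of 11 fell.

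Immediate-early genes that ERK induces held the most calls among the pathway lists. At 8 weeks 11 of 12 fell and 0 rose, with a median log2(FPKM + 1) change of -0.98, and Ier2 was the exception. Egr2 fell from 8.92 to 1.01 FPKM (log2 fold change -3.15, q = 0.0016), and Nr4a1 from 55.9 to 24.8 (-1.17, q = 0.0016), per the authors' deposited table. At 4 weeks Egr2 (-0.73, q = 0.0145) and Arc (-0.46, q = 0.0428) fell per the authors' deposited table, when none of the 8 phosphatases did. CHL2 had 6 of 12 called lower and the control-AAV comparison 7 of 12, where Arc fell from 118 to 36.1 (-1.71, q = 0.00312 per the authors' deposited table). Under Elk-1 AAV 0 of 12 were called by the authors' Cuffdiff test (2 at an unadjusted p below 0.05), and Junb had the lowest q, at 35.1 and 55.9 FPKM (0.67, q = 0.0635 per the authors' deposited table).

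Cell type markers moved with several of these results. All 10 spiny projection neuron markers had lower values at 8 weeks, in CHL2 and between the control-AAV groups, with 9, 9 and 8 called. At 4 weeks 9 of the 10 had lower values and 2 fell, Penk (log2 fold change -0.54, q = 0.0428) and Adora2a (-0.47, q = 0.0145), per the authors' deposited table. The 4-week median log2(FPKM + 1) change of these markers was -0.21, beside -0.18 for the phosphatases, and the sums stood at 78.8% and 84.5% of wild type. The summed FPKM of the markers went from 2876.5 to 1176.8 at 8 weeks (40.9% of wild type), beside 59.3% for the sum of the 8 phosphatases. The phosphatase sum is mostly Ptpn5 and Dusp3, at 184 and 53.2 of 329 FPKM in wild type at 8 weeks. Single phosphatase genes stood there at 22.2% (Ptpn7) to 84.9% (Dusp3) of wild type. In CHL2 the marker sum stood at 53.0% and that of the phosphatases at 80.0% of wild type, and between the control-AAV groups at 47.8% and 62.3%. Under Elk-1 AAV 0 of the 10 spiny neuron markers had lower values than under control AAV. None was called by the authors' Cuffdiff test, and 1 had an unadjusted p below 0.05. Their sum stood at 120.0% of that under control AAV (median log2(FPKM + 1) change 0.18), beside 110.6% for the 7 phosphatases listed. Ptpn5 is itself enriched in spiny neurons. The part of spiny neuron number in the phosphatase values was not tested.

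Markers of neighbouring tissue moved too, in the pools where Dusp1, Dusp6 and Dusp14 differed most. Of 5 cortical excitatory neuron markers, 4 fell at 8 weeks and 4 between the control-AAV groups. Tbr1, a cortical transcription factor, stood at 43.9 FPKM in the control-AAV wild-type pool, beside 11.6 to 17.99 in the 3 other wild-type pools, and at 18.7 in control-AAV R6/1 (log2 fold change -1.23, q = 0.00312), per the authors' deposited tables. The sum of the 5 cortical markers was 567.9 in that wild-type pool and 296.55 in control-AAV R6/1, and 303.15 and 189.0 at 8 weeks. In CHL2, where Dusp6 and Dusp14 were not called, the sums were 180.91 and 188.58, but 3 of the 5 markers had lower values, 4 had an unadjusted p below 0.05 and the median log2(FPKM + 1) change was -0.32. Over the cortical markers whose mean FPKM reached 2 the CHL2 median was -0.11. The only call there was Neurod1, which rose (log2 fold change 1.28, q = 0.00303 per the authors' deposited table). At 4 weeks 0 of the 5 were called by the authors' Cuffdiff test, 0 had an unadjusted p below 0.05, and the median was 0.061. Under Elk-1 AAV the cortical sum stood at 128.9% of that under control AAV (median 0.22). There 1 of the 5 had a lower value, 0 were called and 0 had an unadjusted p below 0.05 by the authors' Cuffdiff test. The part of cortical RNA in the phosphatase values was not tested.

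Oligodendrocyte, choroid plexus and hypothalamic markers differed between pools as well. In CHL2 all 6 oligodendrocyte markers had lower values and 2 fell, Cldn11 (log2 fold change -0.72) and Mobp (-0.64), each with q = 0.00303 per the authors' deposited table. In CHL2 the oligodendrocyte median log2(FPKM + 1) change was -0.58, beside -0.24 for the phosphatases, and their sum stood at 68.2% of wild type. At 8 weeks all 6 had lower values with 0 called by the authors' Cuffdiff test and 1 at an unadjusted p below 0.05 (median -0.28). The summed choroid plexus markers stood at 38.6% of wild type at 8 weeks (5 of 6 fell) and at 461.7% between the control-AAV groups (3 of 6 rose). The summed hypothalamic markers stood at 41.7% of wild type at 4 weeks, where Oxt and Trh fell, at 194.8% at 8 weeks (1 of 6, Avp, rose), at 235.5% in CHL2 (5 of 6 rose) and at 543.0% between the control-AAV groups (4 of 5 rose). Under Elk-1 AAV the hypothalamic sum was 9.01% of that under control AAV (3 of 5 fell), and of 7 microglial markers C1qa and C1qb rose. Their part in the phosphatase values was not tested.

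**Figure D4:**
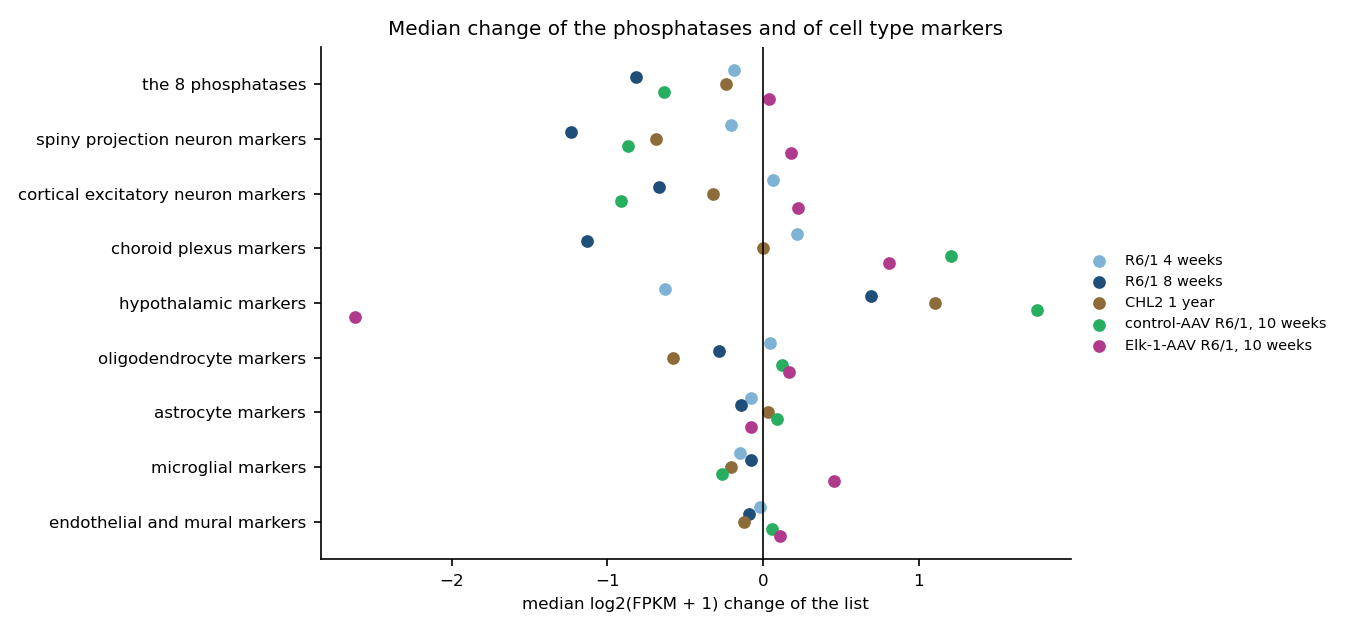
Median log2(FPKM + 1) change (horizontal axis) of the phosphatases (7 of the 8 under Elk-1 AAV) and of 8 cell type marker lists (rows) in the 5 comparisons, which the colours mark. The phosphatase medians (-0.82 at 8 weeks, -0.64 under control AAV, -0.24 in CHL2) lie below 0 beside those of the spiny neuron and cortical markers; at 4 weeks the phosphatase median is -0.18 and the cortical one 0.061, and under Elk-1 AAV the phosphatase median of 0.039 lies near 0.

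The genes whose 5 changes lay nearest to each phosphatase were found among 12323 genes whose mean FPKM reached 1 in every table, by Euclidean distance over the 5 log2(FPKM + 1) changes. For Ptpn5 these were Dlgap3 (distance 0.102), Sh2d5 (0.169) and Camkv (0.190). Dlgap3, a postsynaptic scaffold gene, had log2 fold changes of -0.32, -0.85, -0.43, -0.44 and 0.28 in the order of the 5 comparisons per the authors' deposited tables. Dusp14 lay nearest to Nr4a2 (0.167), Homer1 (0.273) and Cnr1 (0.276), and Dusp6 to Bhlhe40 (0.288), 3110035E14Rik (0.307) and Ano3 (0.312). Nr4a2 and Homer1 are activity-induced genes, and Cnr1 encodes the cannabinoid receptor of spiny neurons. For Dusp1 the closest were Tnnc1 (0.421), Acvrl1 (0.452) and Myl4 (0.464), farther on this scale than the neighbours of the other phosphatases. The deposited log2 fold changes of Tnnc1 were -0.23, -0.84, -0.41, -1.94 and 0.35 in the order of the comparisons. Those of Dusp1 were close to them, at -0.27, -0.88, -0.44, -2.10 and 0.49. Distances on the log2(FPKM + 1) scale also depend on level, since the added 1 understates changes of low genes.

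Ptpn7, compared over the 4 tables that list it, lay nearest to Hipk4 (0.145), Rasd2 (0.158) and Rgs14 (0.177), of which Rasd2 encodes the striatal small GTPase Rhes. This nearness holds on the log2(FPKM + 1) scale, where the added 1 shrinks the changes of so low a gene. The deposited log2 fold changes of Ptpn7 were -2.17 at 8 weeks and -2.51 between the control-AAV groups. Those of Hipk4 were -1.45 and -1.19, those of Rasd2 -1.16 and -0.97, and those of Rgs14 -1.23 and -1.11. Dusp3 lay nearest to Lmo3 (0.0509), Lix1 (0.0524) and Ccdc41 (0.0765). Dusp5 lay nearest to Tcte2 (0.108), Vat1l (0.138) and Spag5 (0.178), and Dusp4 to Midn (0.275), Hnrnpa1 (0.280) and Matn2 (0.293). None of the 8 had another of the 8 among its 3 nearest genes. Ptpn7 could not be such a neighbour, since candidates needed a row in every table. With 12323 candidates for 3 places, this absence does not show that the 8 differ from one another.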

How the data were processed

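The authors deposited 5 tables without headers, 1 per comparison, with 14539, 14320, 14402, 12980 and 12701 genes. The submitters' processing notes name the genome mm9 and the tools Bowtie, TopHat, Cufflinks and Cuffdiff, without versions. Each table holds the authors' FPKM as 1 pooled value per group, the deposited log2 fold change, the deposited statistic of their test (a score, not used here), its p-value and a q-value. The lowest deposited p-value is 5e-05, and the deposited q-values match a Benjamini-Hochberg adjustment within each table. Counts and depth are unknown, so no interval could be computed. How strand was handled and which annotation was used is not given in the sources used here.

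Calls are the authors' q below 0.05, since the tables hold no values per library; limma fits, replicate blocks and left-out replicates need such values and were not run. A log2(FPKM + 1) change was computed with Python 3.11.15 and pandas 2.3.3 for medians over genes whose mean FPKM reached 0.5 (no filter for the 8 phosphatases); the added 1 understates changes of low genes. The adjustment, length correction and likeness steps were tested on simulated data. Transcript length is the longest in GENCODE M21, matched for 98.8% or more of rows. The 8 genes and the 19 lists were chosen with earlier results of these data known. Ppp1r1b and Drd1a stand in 2 lists. Named genes are all 8, up to 5 called genes per list and table with the largest fold change, Ptprr, Elk1 and Mapk3, and the 3 nearest genes by likeness; Fyn, Gria2, Elk3, Elk4, Ptprc, Lck, Lcp2 and the leukocyte markers without a row were named after their values were seen. Alternatives changed the q threshold, the pseudocount, the scaling, the filter and the length correction. Results on some listed genes are not reported here.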

Additional observations from a re-analysis of the deposited data

How the results depend on the processing

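No paired analysis was possible because the tables hold 1 pooled value per group, and leaving out a replicate could not be run for the same reason. The count of phosphatase genes called stayed within 1.5 times of its main value under q below 0.01, q below 0.1 and adjustment over genes whose mean FPKM reached 1 in 14 of 15 recounts. The exception was CHL2, where 1 gene, Ptpn7, passed q below 0.01 in place of 3 at 0.05. At q below 0.1 the CHL2 count was 4, which lies within 1.5 times of 3. At 4 weeks and under Elk-1 AAV the main count was 0, so q below 0.01 could only give 0 again. For a single gene, another pseudocount or the filter on low values cannot reverse the sign of a change. Only the changes of scaling and the length correction could have done so. All 66 recomputed values of the 11 called changes stayed lower, and 62 lay within 1.5 times of the main value. The 4 others were Ptpn7 with other pseudocounts: -2.02 at 8 weeks and -0.97 in CHL2 with 0.1, and -0.51 and -0.21 with 5. With a pseudocount of 5 the median over the phosphatases was -0.12 at 4 weeks, -0.15 in CHL2 and -0.38 between the control-AAV groups. That last median was also -0.40 without Ptpn7, whose mean FPKM is below 1 there, and -0.41 without it and relative to genes of like transcript length. Under Elk-1 AAV it was -0.014 after rescaling without microRNA and small nucleolar RNA rows and 0.020 relative to genes of like length, so it had no stable sign. Pools of 2 to 4 libraries without counts limit what can be said of Ptpn7, Dusp4 and Dusp5, all under 5 FPKM.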

Other observations

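Across genes, the change in a comparison was related to transcript length, most so at 4 weeks and in CHL2. Spearman's rho between the log2(FPKM + 1) change and the longest annotated transcript was 0.498 at 4 weeks and 0.410 in CHL2, beside -0.124 at 8 weeks, -0.0607 in the control-AAV genotype table and -0.177 in the Elk-1 table. Genes are not independent replicates, so these values describe the pools only. The longest transcripts of the phosphatase genes run from 1571 bases for Dusp14 to 4445 for Dusp3. Relative to genes of like length, the median change over the phosphatases was -0.15 at 4 weeks and -0.18 in CHL2, beside -0.18 and -0.24 without that correction.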
